A study of Rattus norvegicus with 8 samples.

Results

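Genes of prostaglandin synthesis and reception were followed in cultured rat aortic smooth muscle cells without stimulation and under angiotensin II (AngII), a vasoconstrictor peptide hormone. The 10 genes were Pla2g4a, Ptgs1, Ptgs2, Ptges, Ptges2, Ptgis, Tbxas1, Ptger2, Ptger4 and Ptgfr, of 14767 genes with an RNA locus that matched exactly 1 symbol. They were chosen by symbol, and where a symbol had several loci the locus with the highest mean level stood for it. The cells were primary vascular smooth muscle cells of Sprague-Dawley rats, taken from the thoracic aorta and grown in serum-containing medium. The control group had no treatment, by its labels. The AngII group was deprived of serum overnight and then given 0.1 uM AngII for 3 h. The labels state that starvation for the AngII group only; if the control cells were not starved, starvation and AngII cannot be told apart. RNA-seq and ChIP-seq of the histone marks H3K4me3 and H3K36me3 each had 1 library per condition, so no difference has a replicate check, no test was possible and no p-value is given.

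Prostaglandins are lipid mediators made from arachidonic acid. Cytosolic phospholipase A2 frees arachidonic acid from membranes, the cyclooxygenases convert it to the unstable prostaglandin H, and terminal synthases turn that into prostacyclin, prostaglandin E, prostaglandin F or thromboxane. These act on G-protein coupled receptors on the same or neighbouring cells. In the vessel wall, prostacyclin relaxes smooth muscle and thromboxane constricts it.

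RNA levels are in FPKM, fragments scaled for transcript length and for the mapped fragments of the library, with the authors' deposited lower and upper bounds, which lie 2 SD either side of the estimate. The bounds are model errors and hold no variation between cultures. Differences are log2((AngII FPKM + 1)/(control FPKM + 1)), which understates those of weakly expressed genes. A gene counted as expressed if either library gave it FPKM of 1 or more, and 8354 genes did. Their median log2 ratio was -0.22 (interquartile range -0.46 to 0.08). The cells carried smooth muscle RNA: 6 of 7 markers with a locus were expressed, and the summed level of the list was 5497 FPKM in control and 5726 FPKM after AngII. Most of that sum was Tagln, at 5103 and 5244 FPKM. None of 6 endothelial, 3 platelet or 5 mast cell markers with a locus was expressed, and Pf4, Ppbp and Gp9 of platelets were listed at 0 in both libraries. The endothelial marker Cldn5 lies on an unplaced sequence of chromosome 11. The mast cell markers Mcpt1 and Fcer1a lie on intervals shared by 11 and 12 loci. The 0 of these genes therefore cannot be read as absence. Of 11 leukocyte markers, Cd14 and Cd74 were expressed, with a summed level of 11.6 and 12.4 FPKM over the list, and the pan-leukocyte marker Ptprc was listed at 0. Levels of the leukocyte markers Itgam and Cd68, on intervals shared by 58 and 22 loci, and of Adgre1, on sequence assigned to no chromosome, are uncertain. In bulk RNA, fewer cells of a type and less RNA per cell cannot be told apart.

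Ptgs2 encodes the inducible cyclooxygenase, Pla2g4a the phospholipase that supplies its substrate and Ptgs1 the cyclooxygenase that most tissues make constitutively. Their promoters are shown because Ptgs2 and Pla2g4a were the members past 2-fold and Ptgs1 is the paralogue of Ptgs2 that was not. The windows are from RefSeq on the assembly GRCr8, 250 bases before to 50 bases after the annotated start, 5′ to 3′ on the gene's strand. They lie at chr13:64713813-64714112 on the plus strand (Ptgs2), chr13:64572303-64572602 on the minus strand (Pla2g4a) and chr3:39981169-39981468 on the plus strand (Ptgs1). Capitals mark matches, on either strand, to any of the following motifs. The TATA box was searched as TATAAA and the AP-1 motif, bound by Fos and Jun, as TGANTCA. The cyclic AMP response element (CRE) was searched in full as TGACGTCA and by its core as TGACG. The Sp1 box was searched as GGGCGG and the E-box as CACGTG. The C/EBP motif was searched as TTNNGNAA.
Ptgs2: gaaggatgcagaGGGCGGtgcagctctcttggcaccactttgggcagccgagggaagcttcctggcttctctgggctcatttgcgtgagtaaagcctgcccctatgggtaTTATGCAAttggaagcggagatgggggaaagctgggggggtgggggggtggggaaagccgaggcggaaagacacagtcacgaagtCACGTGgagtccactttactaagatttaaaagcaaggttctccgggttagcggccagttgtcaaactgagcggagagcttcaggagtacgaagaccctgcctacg
Pla2g4a: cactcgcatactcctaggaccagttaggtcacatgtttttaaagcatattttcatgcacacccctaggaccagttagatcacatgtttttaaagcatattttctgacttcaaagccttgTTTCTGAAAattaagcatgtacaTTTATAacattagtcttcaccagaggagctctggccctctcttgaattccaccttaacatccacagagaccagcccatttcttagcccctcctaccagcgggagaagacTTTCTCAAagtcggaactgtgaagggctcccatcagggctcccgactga
Ptgs1: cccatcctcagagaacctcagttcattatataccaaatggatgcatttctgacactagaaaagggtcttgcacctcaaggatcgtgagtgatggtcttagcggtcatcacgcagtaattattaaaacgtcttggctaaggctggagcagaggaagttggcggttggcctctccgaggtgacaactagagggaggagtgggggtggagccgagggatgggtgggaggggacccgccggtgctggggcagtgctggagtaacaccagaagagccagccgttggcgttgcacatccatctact

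The Ptgs2 window held GGGCGG from 238 bases, TTNNGNAA from 140 bases and CACGTG from 55 bases before the start. The Pla2g4a window held TATAAA on the opposite strand from 108 bases before the start, and TTNNGNAA as 2 overlapping matches, from 131 and 130 bases before it, and again just after it. The Ptgs1 window held none of these letters. Over 33469 promoter windows of the same length, TTNNGNAA occurred in 41.3%, GGGCGG in 33.1%, TGACG in 21.2%, TATAAA in 14.2%, TGANTCA in 7.33%, CACGTG in 6.42% and TGACGTCA in 1.83%. The full CRE contains the CRE core, so those matches overlap. Windows were found for 8 of the 10 genes, and CACGTG occurred in Ptgs2 alone of the 8. TGANTCA occurred in 1 of the 8 (Tbxas1), TGACG and TGACGTCA in 0. A match is a string of letters, and the RNA and ChIP files use another assembly, rn4, so these windows were not placed on their coordinates.

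After AngII, Ptgs2 RNA went from below Pla2g4a, Ptges2 and Ptgis to above every other member, although its control bounds overlapped those of Pla2g4a and Ptges2. Ptgs2 (rn4 chromosome 13, 64427287 to 64432978) stood at 3.89 FPKM (bounds 1.95 to 5.84) without AngII and 86.1 FPKM (50.1 to 122) with it. The ratio of these levels was 22.1, and an interval of 2 SD built from the deposited bounds ran from 11.5 to 42.5. On the pseudocount scale the log2 ratio was 4.15, rank 7 of the 8354 expressed genes. By level, Ptgs2 ranked 6913 of 14767 genes in control and 672 after AngII. The bounds of the libraries were far apart.

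Of the 5 expressed members, 2 were at least 2-fold higher after AngII, Ptgs2 and Pla2g4a, and 0 were at least 2-fold lower. Among all expressed genes 3.89% were at least 2-fold higher and 2.96% at least 2-fold lower. Bounds were apart for 1 member, Ptgs2, where 2.71% of expressed genes were 2-fold higher with bounds apart and 1.58% were lower with bounds apart. The median log2 ratio of the 5 was 0.38, beside -0.22 for all expressed genes, and 4 of the 5 lay above 0, as did 30% of expressed genes.

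**Figure D1:**
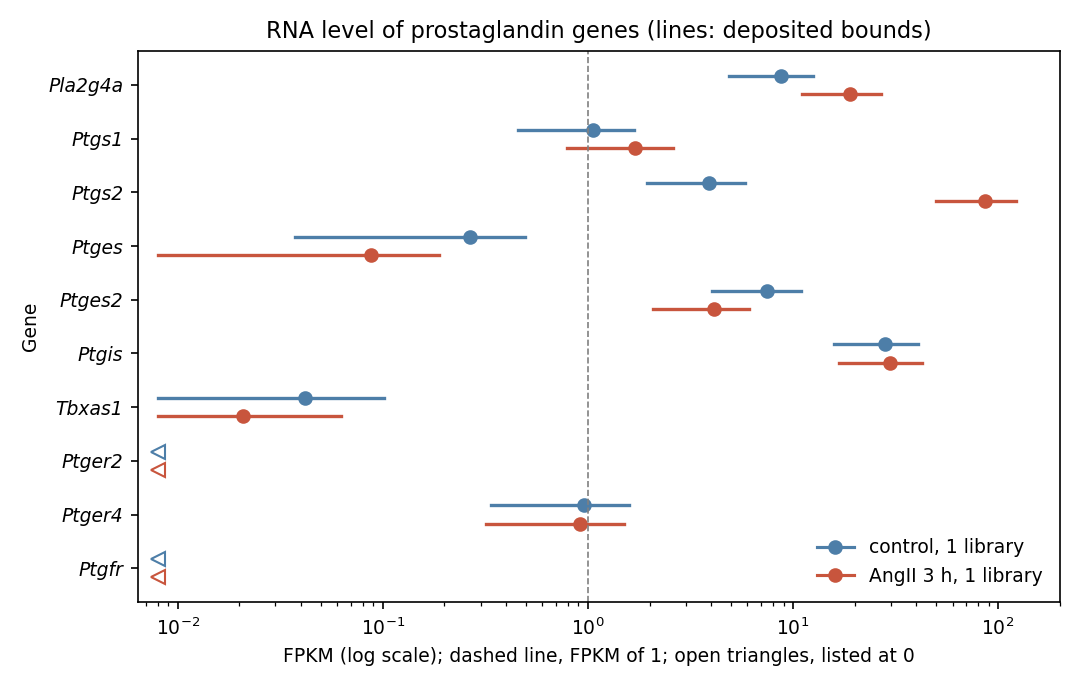
FPKM of the 10 genes on a log axis in the control library (blue) and the AngII library (red), 1 library each; horizontal lines are the authors' deposited bounds, lower bounds of 0 are drawn to the left edge, and open triangles are genes listed at 0. Ptgs2 moves from 3.89 to 86.1 FPKM with bounds apart, while the lines of every other member with a value overlap.

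Pla2g4a (chromosome 13, 64135729 to 64280815) was the other member past 2-fold. It stood at 8.71 FPKM (bounds 4.89 to 12.5) without AngII and 19.04 FPKM (11.1 to 27.0) with it, a log2 ratio of 1.05. The level ratio was 2.19 (interval 1.19 to 4.01) and the deposited bounds overlapped. The symbol had 3 listed loci. The other 2 are short pieces 0.694 kb and 1.85 kb below the main locus, and both were higher after AngII, at 0.193 and 0.960 FPKM for one and 0.0943 and 0.939 FPKM for the other. With the AngII values scaled to centre the median expressed locus, or with the loci of a symbol summed, the bounds of Pla2g4a no longer overlapped. With a pseudocount of 5 it was not past 2-fold.

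Ptgs1 (chromosome 3, 15343831 to 15368167), unlike Ptgs2, was weakly expressed in both libraries. It stood at 1.06 FPKM (bounds 0.454 to 1.67) without AngII and 1.69 FPKM (0.787 to 2.60) with it, a log2 ratio of 0.38 with bounds that overlap. Within the control library the level of Ptgs2 was 3.66 times that of Ptgs1 (interval 1.71 to 7.83). Within the AngII library it was 50.9 times as high (25.8 to 100.4). Ptgs2 thus had the higher FPKM of the cyclooxygenases in both libraries.

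Of the 4 terminal synthases among the 10 genes, prostacyclin synthase had the highest FPKM in both libraries. Ptgis (chromosome 3, 158356877 to 158387984) stood at 28.2 FPKM (bounds 15.9 to 40.5) without AngII and 29.6 FPKM (16.7 to 42.4) with it, a level ratio of 1.05 (0.566 to 1.94). In control its level was 7.25 times that of Ptgs2 (3.73 to 14.1), and after AngII Ptgs2 stood at 2.91 times the level of Ptgis (1.59 to 5.32). The order of these enzymes was thus opposite in the libraries, with bounds apart in each.

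Ptges2, which encodes a membrane-associated prostaglandin E synthase, had the lowest log2 ratio of the expressed members. It lies on chromosome 3 (11521213 to 11528395) and stood at 7.51 FPKM (bounds 4.05 to 10.97) without AngII and 4.11 FPKM (2.08 to 6.13) with it. The log2 ratio was -0.74, not past 2-fold, and the bounds overlapped. Ptges, the inducible microsomal prostaglandin E synthase that is often expressed together with Ptgs2, was below the expression minimum. It stood at 0.267 FPKM (bounds 0.0372 to 0.497) without AngII and 0.0876 FPKM (0 to 0.189) with it, with bounds that overlap. Tbxas1, thromboxane synthase of platelets and macrophages, stood at 0.0420 FPKM without AngII and 0.0208 FPKM with it. Its bounds start at 0 in both libraries and would equal 2 and 1 fragments if they reflect counting alone, so no ratio is given.

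The receptors were low or listed at 0. Ptger4, a prostaglandin E receptor that raises cyclic AMP, was the only receptor of the 3 with a value, at 0.960 FPKM (bounds 0.339 to 1.58) without AngII and 0.913 FPKM (0.320 to 1.51) with it. It lies on chromosome 2 (54423279 to 54433907), just under the expression minimum, and its log2 ratio of -0.04 was above 0 when AngII values were scaled to the median (0.10) or to the upper quartile (0.01). A second piece with the same symbol, 1.40 kb away, stood at 0.549 and 0.149 FPKM. With both pieces summed, Ptger4 passed the expression minimum and had a log2 ratio of -0.28.

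Ptger2, another cyclic AMP-raising prostaglandin E receptor, had 2 loci on chromosome 15 (20205442 to 20216872 and 20878084 to 20889615), both listed at 0 in both libraries. They are 11431 and 11532 bp long and lie 661 kb apart. Whether they hold the same sequence was not tested, so the 0 of Ptger2 is uncertain. Ptgfr, the prostaglandin F receptor, has its locus on an unplaced sequence of chromosome 2, and was also listed at 0. All 142 loci with an accession on such unplaced sequences were listed at 0 in both libraries, against 20.5% of 20714 elsewhere. The 0 of Ptgfr therefore cannot be read as its expression.

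Levels per length ordered the members differently in each library. In control the order was Ptgis, Pla2g4a, Ptges2, Ptgs2, Ptgs1, Ptger4, Ptges and Tbxas1, and neighbouring bounds were apart only between Ptgis and Pla2g4a and between Ptgs2 and Ptgs1. After AngII the order was Ptgs2, Ptgis, Pla2g4a, Ptges2, Ptgs1, Ptger4, Ptges and Tbxas1. Neighbouring bounds were then apart only between Ptgs2 and Ptgis, between Pla2g4a and Ptges2 and between Ptger4 and Ptges.

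**Figure D2:**
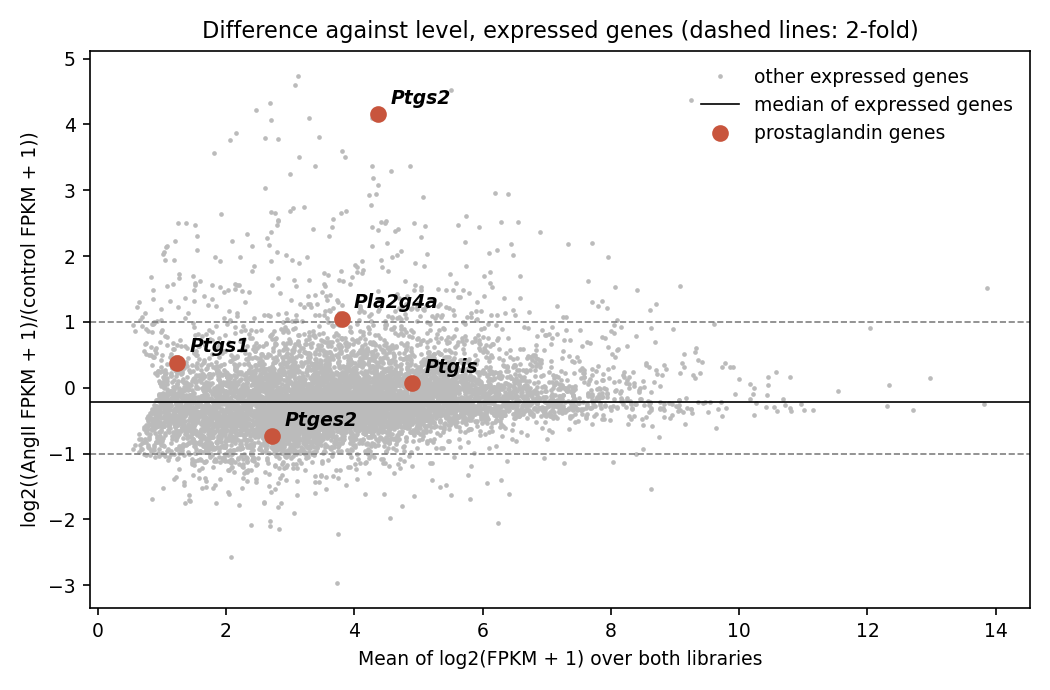
Log2 ratio of AngII to control (vertical axis, pseudocount of 1) against the mean log2 level over both libraries (horizontal axis) for 8354 expressed genes, with the 5 expressed prostaglandin genes in red, the 2-fold lines dashed and the median of -0.22 in black. Ptgs2 lies near the top at 4.15, Pla2g4a at the 2-fold line and Ptges2 at -0.74 inside the lower line.

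Genes nearest to Ptgs2 in both levels, by Euclidean distance in log2(FPKM + 1) over the 2 RNA libraries, were C9h6orf141 (distance 0.13), the pseudokinase gene Trib1 (0.57) and the semaphorin gene Sema7a (0.68). C9h6orf141 stood at 3.71 and 79.7 FPKM, Trib1 at 5.03 and 61.5 FPKM and Sema7a at 6.63 and 74.1 FPKM. With only 2 libraries, likeness here means a similar pair of levels.

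H3K4me3, the mark of active or poised promoters, lay at 7 of the 10 genes in each condition, counted within 1 kb of the locus. All 5 expressed members had it in both libraries, as did 96.3% of expressed genes in control and 96.3% after AngII. Below the expression minimum, Ptges and Ptger4 had it in both libraries and Tbxas1 and Ptger2 in neither, where the share of such genes was 53% in control and 51.4% after AngII. The nearest H3K4me3 region lay 44.2 kb from Tbxas1 and 879 kb from Ptger2 in control. Ptgfr could not be scored, since the region lists hold no unplaced sequence.

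At Ptgs2 the H3K4me3 region was longer after AngII and ran over the whole gene. The control region spanned 5049 bp (64424156 to 64429204), began 3131 bp below the lower end of the locus and covered 33.7% of it. The AngII region spanned 9120 bp (64424274 to 64433393), began 3013 bp below the lower end, ended 415 bp past the upper end and covered 100%. The lower edges thus differed by less than a single bin of either list (153 bp in control and 160 bp after AngII), and the upper edge accounted for the difference of 66.3 points. Cover was higher by over 50 points at 0.132% of all expressed genes, and at 0.363% of the 1652 with loci of 3 to 12 kb. Cover was lower by over 50 points at 0.227% of expressed genes. The measure was chosen after its value was seen. Among the AngII regions 4.05% were at least as wide as that of Ptgs2, and among the control regions 13.1% were at least as wide as its control region. The first number deposited per region, of unstated meaning, is called a score here. By it the control region stood above 79.5% of control regions and the AngII region above 73.5% of AngII regions. The longer region thus did not come with a higher place by score.

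The other H3K4me3 regions differed by less than 10 points of the locus. Ptgis had the widest, 12546 bp in control and 12800 bp after AngII, wider than all but 1.82% and 1.87% of regions, and these covered 35.2% and 35.5% of the locus. Ptges2 had 42.7% and 34.1%, Ptger4 17.9% and 10.5%, Ptges 6.41% and 5.81% and Ptgs1 3.27% and 5.36%. The region of Pla2g4a over the upper end of its locus was 2295 bp wide in control and 3040 bp after AngII, and 1 further region inside the gene was listed in both libraries. Another inside the gene, of 765 bp, was listed in control only. Ptges thus kept a region over 1 end of its locus at an RNA level near 0.

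**Figure D3:**
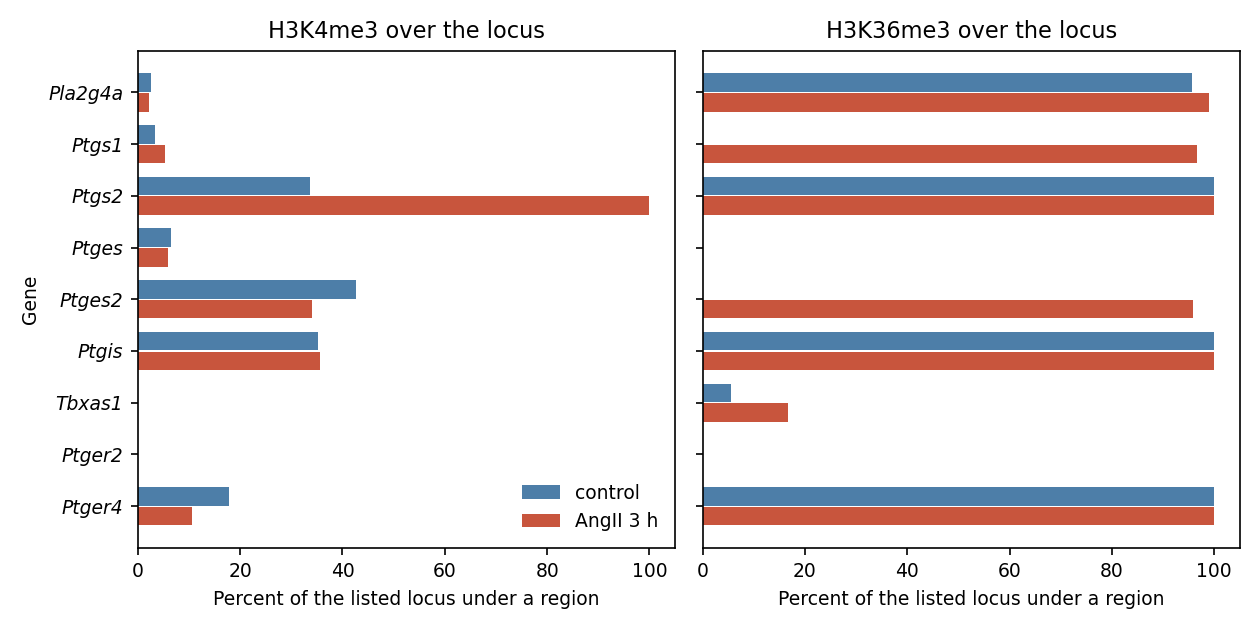
Percent of each listed locus under H3K4me3 regions (left) and H3K36me3 regions (right) in control (blue) and after AngII (red), 1 library each, for the 9 genes on sequences the region lists hold; no bar means 0%. The H3K4me3 bar of Ptgs2 goes from 33.7% to 100%, and the H3K36me3 bars of Ptgs1 and Ptges2 from 0% to over 95%.

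H3K36me3, deposited along transcribed gene bodies, lay at 5 of the 10 genes in control and 7 after AngII. Of the 5 expressed members, 3 had it in control and 5 after AngII, beside 95.6% and 97.5% of expressed genes. Ptgs2 and Ptgis were wholly covered in both libraries, and Pla2g4a was covered over 95.6% and 98.9%. Cover of Ptgs2 in control was already 100% at 3.89 FPKM, from a region of 25.9 kb that reached 16.8 kb below the locus.

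Ptgs1 and Ptges2 had no H3K36me3 region in control and were covered over 96.7% and 95.9% after AngII. Such a gain, over 50 points, was seen at 2.9% of expressed genes, and at 37.9% of the 364 expressed genes with no cover in control; a loss of over 50 points was seen at 0.347%. The RNA of these genes did not share a direction, with log2 ratios of 0.38 and -0.74. The AngII region of Ptgs1 spanned 24.7 kb (15344632 to 15369291), followed the gene from just inside its lower end and touched no other gene with a symbol. Its value, the authors' first number per region, was higher than that of only 15.2% of AngII regions, and with the lowest quartile of each list left out the cover of Ptgs1 was 0% in both libraries. The AngII region of Ptges2 spanned 51.5 kb and ran on over Slc25a25, a mitochondrial carrier gene at 10.96 FPKM without AngII and 17.6 FPKM with it. The share of that region owed to either gene was not tested.

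Below the expression minimum, Ptger4 and Tbxas1 lay under regions that ran past them. Ptger4 was covered over 100% in both libraries, by regions of 67.7 kb and 107 kb that also reached Ttc33 and, after AngII, Prkaa1. Those neighbours stood at 4.31 and 19.9 FPKM in control, above Ptger4 at 0.960 FPKM. Tbxas1 was covered at its upper end only, over 5.61% in control and 16.7% after AngII, by regions that continued for 62.0 kb and 52.4 kb past the gene. Ptges had none in either library, and neither had Ptger2, while the share of genes below the minimum with a region was 37.3% in control and 41.5% after AngII.

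Pla2g4a and Ptgs2, the members past 2-fold, are neighbours on chromosome 13, with 146 kb between their listed loci. RefSeq on GRCr8 also lists the pseudogene Tmem208-ps1 and the long non-coding RNA Ptgs2os between them, of which neither had a matched locus. The only listed locus in the gap, XLOC_007524 (64387504 to 64388166), has accessions that matched no symbol and lies 39.1 kb below Ptgs2. It stood at 8.57 FPKM (bounds 4.19 to 12.95) without AngII and 9.73 FPKM (4.82 to 14.7) with it, with bounds that overlap. The gap thus held no listed transcript that differed between the libraries with bounds apart. Only regions wholly inside the gap and over 1 kb from both genes were counted. There were 0 such H3K4me3 regions in control and 2 after AngII, of 0.96 kb at 133 kb and 0.32 kb at 13.7 kb from Ptgs2. There were 4 such H3K36me3 regions in control, 22.4 kb in all and 1 of them a single bin of 589 bp, and 0 after AngII. That single bin (64387555 to 64388143) lies inside XLOC_007524, whose RNA bounds overlapped between the libraries. The H3K36me3 region over Ptgs2, not counted here, reached into the gap by 16761 bp in control and 15933 bp after AngII. Regions listed in 1 condition only were common across the genome. Of all control H3K36me3 regions 22.2% overlapped none after AngII, and 37% of those no wider than the widest of these 4. Of all AngII H3K4me3 regions 11.4% overlapped none in control, and 29.6% of those no wider than the wider of these 2. In the other direction, 22.3% of AngII H3K36me3 regions and 12.2% of control H3K4me3 regions had no counterpart.

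**Figure D4:**
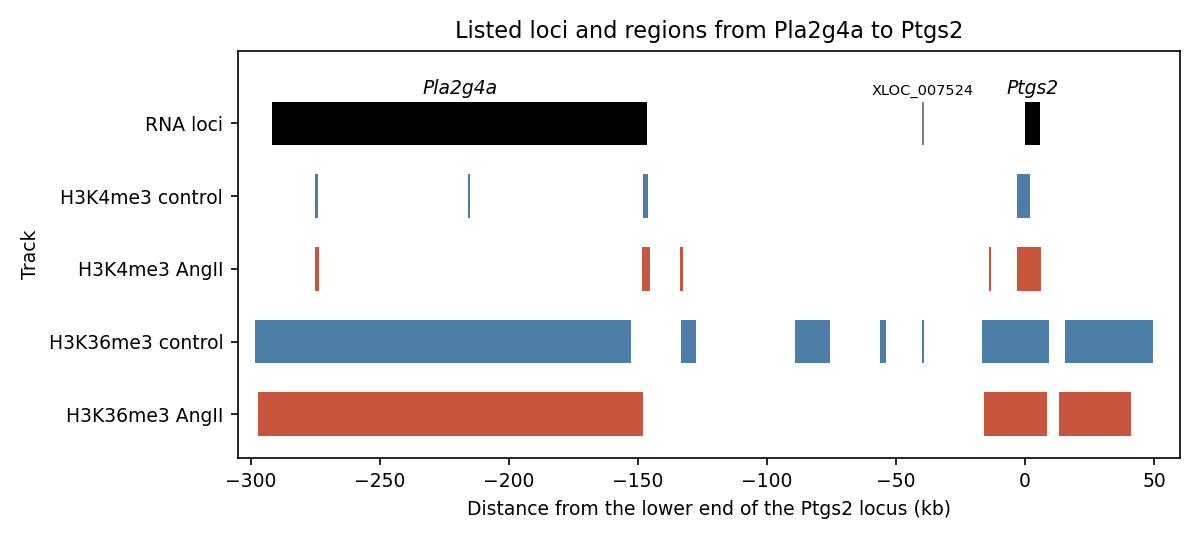
Listed RNA loci (top row) and the H3K4me3 and H3K36me3 regions of control (blue) and AngII (red) from Pla2g4a to Ptgs2, by distance in kb from the lower end of the Ptgs2 locus; items under 0.8 kb are drawn 0.8 kb wide. The H3K4me3 region at Ptgs2 is 5049 bp long in control and 9120 bp after AngII. Wholly inside the gap of 146 kb lie 4 H3K36me3 regions in control and 0 after AngII. The H3K36me3 region over Ptgs2 reaches into the gap in both.

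Because the study concerns long non-coding RNAs, loci without an accession within 100 kb of a member were counted. None lay that close to Ptgs2, Pla2g4a, Ptgs1 or Ptgis. Ptges2 had 7, of which 6 reached FPKM of 1, all 28.8 to 41.2 kb away and all higher after AngII, with log2 ratios of 0.43 to 0.78. These 6 follow each other closely in a single stretch (11557171 to 11573238) and may be pieces of the same transcript, which was not tested. They are therefore not 6 separate observations, and no share over all such loci is given. The one with the highest level, XLOC_018799, stood at 1.67 FPKM (bounds 0.803 to 2.53) without AngII and 3.58 FPKM (1.90 to 5.26) with it. Bounds overlapped at all 6, and all 6 overlap the H3K36me3 region that covers Ptges2 after AngII. Ptger4 had 2: XLOC_015419, 6.02 kb away, at 1.04 and 0.354 FPKM, and XLOC_015421, 92.6 kb away and 696 bp long, at 1153 and 944 FPKM. Tbxas1 had 1 with FPKM of 1, XLOC_021097, at 1.18 and 0.896 FPKM. Bounds overlapped at these 3 as well.

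Other genes of lipid mediator metabolism were examined in 6 lists of 66 genes, of which 56 had a locus and 26 were expressed. Of these 26, 3 were at least 2-fold higher (Slco2a1, S100a10 and Acsl4) and 1 at least 2-fold lower (Tbxa2r), with a median log2 ratio of -0.29 and 10 above 0. The shares of all expressed genes are the 3.89% and 2.96% given above.

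Slco2a1, the transporter that takes prostaglandins up into cells for breakdown, stood out among the 5 expressed of 6 transport and breakdown genes. It stood at 0.724 FPKM (bounds 0.279 to 1.17) without AngII and 4.32 FPKM (2.25 to 6.39) with it, a log2 ratio of 1.63 with bounds apart. H3K36me3 covered 0% of its locus without AngII and 94.2% with it, and it had H3K4me3 in both libraries. The H3K36me3 gain was not particular to it. Ptgr1 of the same list went from 0% to 70.3% at a log2 ratio of -0.22. A gain over 50 points was seen at 37.9% of the 364 expressed genes with no cover in control. The reductases that inactivate prostaglandins, Ptgr2 (7.72 and 6.42 FPKM), Ptgr3 (6.02 and 3.42 FPKM) and Ptgr1 (4.57 and 3.79 FPKM), were not past 2-fold. Hpgd, the dehydrogenase that starts that breakdown, was near 0 at 0.0274 and 0.0273 FPKM. The list median was -0.23, and 0.0069 with AngII values scaled to the median locus, with 1 gene higher and 0 lower.

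Of the other prostanoid receptors, 2 of 6 with a locus were expressed. Tbxa2r, the thromboxane receptor, stood at 30.3 FPKM (bounds 17.6 to 43.0) without AngII and 9.26 FPKM (5.02 to 13.5) with it, a log2 ratio of -1.61 with bounds apart. Its listed interval of 369 kb is shared by 24 loci, so its level is uncertain and its marks cannot be assigned to it. Ptgfrn, which encodes a membrane protein that binds the prostaglandin F receptor, stood at 85.3 and 67.2 FPKM. The prostacyclin receptor Ptgir was at 0.137 and 0.135 FPKM, below the minimum, as were Ptger3 and Ptgdr2.

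The other prostanoid synthases had 4 of 9 expressed, 0 past 2-fold and a median of -0.37. They were Akr1b1, an aldo-keto reductase (125.0 and 101.2 FPKM), the cytosolic prostaglandin E synthase and cochaperone Ptges3 (114.0 and 114.4 FPKM, an interval shared by 8 loci), the carbonyl reductase Cbr1 (17.5 and 12.7 FPKM) and the prostaglandin F synthase Prxl2b (4.48 and 2.30 FPKM). Prostaglandin D synthase Ptgds was listed at 0, on an interval shared by 11 loci, so its level is uncertain. Hpgds was below the minimum.

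The phospholipase A2 list had 4 of 12 genes with a locus expressed and 0 past 2-fold, with a median of -0.44. Over the only genes with FPKM of 5 or more, Plaa (log2 ratio 0.37) and Pla2g15 (-0.34), the median was 0.019. Plaa, a phospholipase A2 activating protein, was at 31.2 and 40.7 FPKM, the lysosomal Pla2g15 at 5.34 and 4.02 FPKM, the calcium-independent Pla2g6 at 4.65 and 2.87 FPKM and Pla2g4b at 1.31 and 0.524 FPKM. The secreted Pla2g2a and Pla2g5 were listed at 0. Pla2g4a, at 8.71 and 19.04 FPKM, had the highest FPKM of the phospholipase A2 enzymes measured in each library, with control bounds that overlapped those of Pla2g15 and Pla2g6. In the lipoxygenase and leukotriene list only Lta4h, the leukotriene A4 hydrolase, was expressed of 12 (35.2 and 23.5 FPKM), and Alox5, its upstream lipoxygenase, was at 0.0156 and 0.0154 FPKM.

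Genes that release or recycle arachidonic acid, with annexins, had 10 of 11 expressed and a median of 0.22, with 7 above 0. S100a10, the light chain that binds annexin A2, stood at 203 FPKM (bounds 119 to 288) without AngII and 569 FPKM (323 to 814) with it, a log2 ratio of 1.48 with bounds apart, and its H3K4me3 cover was 50.8% and 90.1%. Acsl4, which couples arachidonic acid to coenzyme A, stood at 15.5 FPKM (bounds 9.07 to 22.0) without AngII and 36.2 FPKM (21.0 to 51.3) with it, a log2 ratio of 1.17 with bounds that overlap. Anxa1 (565 and 757 FPKM), Anxa2 (503 and 627 FPKM) and the lipase Mgll (87.0 and 60.2 FPKM) were not past 2-fold.

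**Figure D5:**
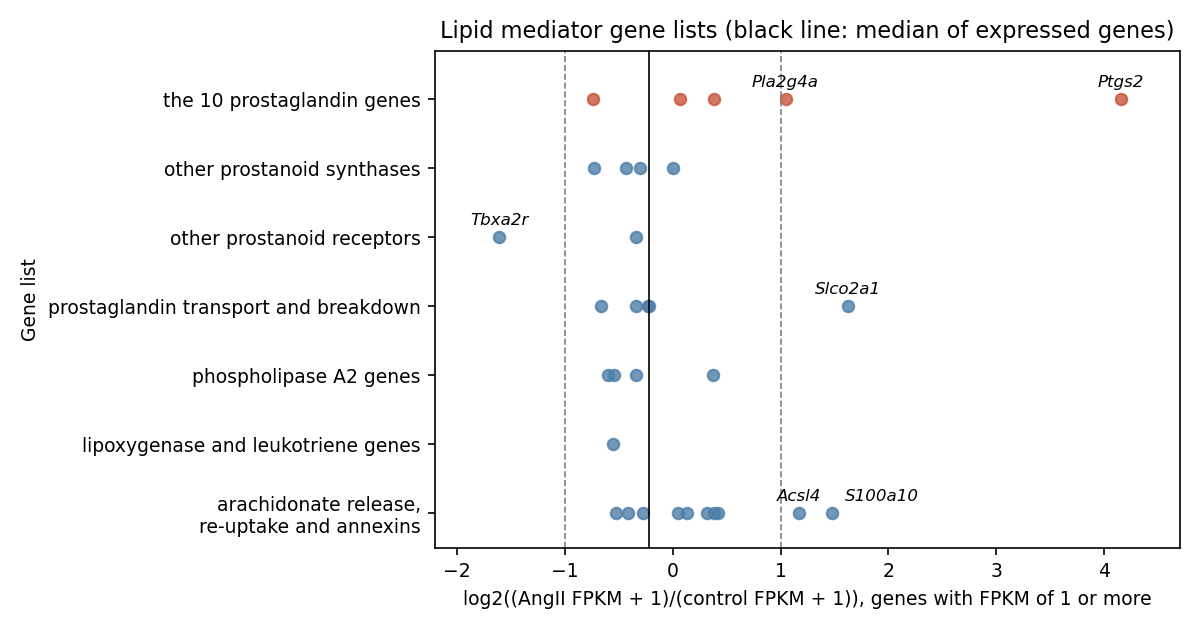
Log2 ratio of AngII to control for the expressed genes of the 10 prostaglandin genes (red) and of 6 lists of lipid mediator genes (blue), 1 point per gene; dashed lines are 2-fold and the black line is the median of expressed genes. Ptgs2 (4.15), Slco2a1 (1.63), S100a10 (1.48), Acsl4 (1.17) and Pla2g4a (1.05) lie past the upper line and Tbxa2r (-1.61) past the lower.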

How the data were processed

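RNA levels are FPKM with lower and upper bounds, computed by the authors with TopHat, Cufflinks and Cuffdiff on rn4, per the submitters' processing notes, after depletion of ribosomal RNA, per the labels. The tables deposited for the control and AngII samples were identical and hold both conditions. No source used here states the depth; the median relative SD implied by the bounds was 21.0% in control and 21.1% after AngII at FPKM of 10 or more in both. ChIP-seq regions come with a score deposited by the authors, which served solely to order or filter regions inside their own list. The submitters' processing notes name Bowtie for the ChIP libraries; no region caller is named in the labels or files. The input libraries were not analysed here.

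Accessions of 20869 loci were matched to RefSeq symbols (GRCr8, names only), 77.9% with success. Loci were matched, ratios computed and regions overlapped (at least 1 bp) with Python 3.11.15, pandas 2.3.3 and numpy 2.4.6, and the calculations were checked on simulated data. The members and lists were chosen with earlier results of these data known. The text names all members, list genes past 2-fold, the list genes with the highest levels, and the 3 genes nearest to a member with bounds apart; other names were chosen after their values were seen.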

Additional observations from a re-analysis of the deposited data

How the results depend on the processing

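No paired analysis was possible because each assay has 1 library per condition, which also means that none could be omitted. Ptgs2 was past 2-fold with bounds apart under every setting tried. The members' median log2 ratio of 0.38 ranged from 0 without an FPKM minimum to 0.62 with a pseudocount of 0.1, and was 0.14 with a pseudocount of 5. The sign turned for the transport and breakdown median (0.0069 scaled to the median locus), for the phospholipase A2 median (0.019 with an FPKM minimum of 5) and for Ptger4 (0.10 and 0.01 under the scalings), none of them a called value. The value of 0.019 rests on Plaa and Pla2g15 alone. With the loci of a symbol summed, Ptger4 passed the FPKM minimum at a log2 ratio of -0.28, and the members' median was 0.22. The number of members at least 2-fold higher was 1 with a pseudocount of 5. Members with bounds apart were 2 when AngII values were scaled by 1.21 to centre the median locus, and 2 with the loci of a symbol summed, Pla2g4a being the second. Under a 1.5-fold rule 1 member (Ptges2), 1 other synthase, 1 transport and breakdown gene and 1 phospholipase A2 gene were lower. The phospholipase A2 list had 1 gene lower with a pseudocount of 0.1. The transport and breakdown list had 0 genes higher with a pseudocount of 5, and 0 with an FPKM minimum of 5. The median of the phospholipase A2 list was -0.19 with a pseudocount of 5 and 0 without a minimum. Without a minimum the medians were 0 for other synthases, -0.028 for other receptors and -0.00017 for the lipoxygenase list. Scaled to the median locus, the other synthases had a median of -0.10 and the arachidonate and annexin list 0.50. Fewer or more genes enter when the minimum changes; the cause of the other shifts was not tested. Ptgs2 had a log2 ratio of 3.36 with a pseudocount of 5. Extending each locus by 1 kb, an alternative added after seeing the data for H3K4me3, gave Ptgs2 an H3K4me3 cover of 37.9% in control and 92.4% after AngII. Without replicates or stated depth, differences within the deposited bounds were not detectable.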
